A study of Danio rerio with 23 samples.

Results

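The intestines of 4 zebrafish starved for 3 days (3 days post-starvation, 3dpS) were compared with those of 3 continuously fed fish taken at the same time point. These 7 libraries, 3 fed and 4 starved, were chosen by the time point and diet in their labels from the 23 libraries of a study that also sampled fish after longer starvation and after refeeding. All fish were adult siblings of 1 breeding pair that had been moved into clean tanks of 44 fish. The fed fish received Artemia and the pelleted diet Gemma 300, while the starved fish received no food. Each library holds the total RNA of the whole intestinal tract of 1 fish, depleted of ribosomal RNA, so epithelium, muscle, immune cells and any adhering pancreas or liver are measured together. Fed fish came from 2 tanks and starved fish from 2 other tanks, and a difference of diet therefore cannot be told apart from a difference of tank. The labels give an age of 81 days post-fertilization (dpf) for every library, while starvation began at 60 dpf by the methods of the study, so the libraries were grouped by time point. All fish were collected before the first meal of the day, so the fed fish had also gone without food since the day before. Strain and sex are not given in the sources used here.

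The intestine meets the loss of food first, since its enterocytes absorb and export dietary fat, amino acids, sugars and metals and renew themselves continually. In fasting vertebrates, glucocorticoids rise and insulin falls, and tissues turn from glucose to fatty acids as fuel through regulators such as pyruvate dehydrogenase kinases. Sterol synthesis and ribosome production are both costly and are tied to nutrient supply through SREBP and TOR signalling, and innate antiviral genes are driven by interferon signalling. Each of these processes was described here by a list of genes.

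The 7 libraries held 596487 to 1236436 reads assigned to genes, and 12255 to 13303 genes had at least 1 read. A count of 3 reads, taken as the smallest detectable, corresponds to 2.43 to 5.03 CPM (reads scaled to the library total) and covers counting error only. The limit of 2.43 CPM and the largest total belong to the starved library Sta1Gut2. Its counts were even numbers in all 21 genes called below and in all 106 genes that DESeq2 called. Whether its reads were counted double was not tested, so its limit in CPM may be too low. Of 34326 gene identifiers, 3953 had enough reads to be tested. The strand option of the counting is not stated, and *MT-ND6*, the only mitochondrial protein gene on its strand, had a mean of 16183 reads per library against 4939 for *MT-CO1*, the next. Reads of a gene and of an overlapping gene on the other strand can therefore not be told apart here. Each value belongs to an identifier and may include, or consist mostly of, reads of other transcripts. Whether the counts are mainly those of the opposite strand was not tested. What is said below of a named gene holds for its identifier only. The fed library Fed1Gut1 stood apart from the other 2 fed libraries. Its 10 most abundant genes held 44.0% of its reads (26.1% to 35.3% in the other 6), and its summed exocrine pancreas markers reached 7846 CPM against 1166 to 4660 CPM. Its summed erythrocyte markers, nearly all from *alas2*, reached 26487 CPM against 2139 to 12090 CPM. Defining markers of the labelled tissue were present in every library, and the 15 enterocyte markers summed to 3702 to 4242 CPM in fed and 3886 to 5587 CPM in starved fish. Marker sums are plain CPM of the counted reads, and all other CPM values of the 7 libraries carry TMM scaling factors.

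At an adjusted p under 0.05 (edgeR's quasi-likelihood test, two-sided), 21 of the 3953 genes were called (0.531%), 10 higher in starved fish (0.253%) and 11 lower (0.278%). Without adjustment, 591 genes had a p under 0.05 (15.0%), and the 2 groups of fish did not overlap for 564 genes (14.3%), 288 of them higher (7.29%) and 276 lower (6.98%). DESeq2, the tool of the study, called 106 of 3470 genes (3.05%), 56 higher (1.61%) and 50 lower (1.44%), of which 20 were among the 21. Below, a gene is called where edgeR called it, and calls of DESeq2 are named as such. The genes that rose were 4 factors of ribosome assembly, 3 members of the translation factor list (*eef1da*, *BTF3* and *TPT1*), the RNA-binding protein *CAPRIN1*, the Cdc42 exchange factor *DOCK9* and the uncharacterized *si:dkeyp-1h4.9*. Those that fell were *sycp2l*, the interferon-induced *ifit8*, the copper importer *slc31a1*, the isoprenoid enzyme *IDI1*, the acyltransferase *LCLAT1*, the stress protein *nupr1*, the glycosyltransferase-domain gene *GLT8D2*, the chromatin gene *mideasa* and 3 uncharacterized genes. The plot of all tested genes shows that *sycp2l* lay far from the rest. Names in capitals are those of the gene name table, which writes many zebrafish genes by their human name.

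**Figure D1:**
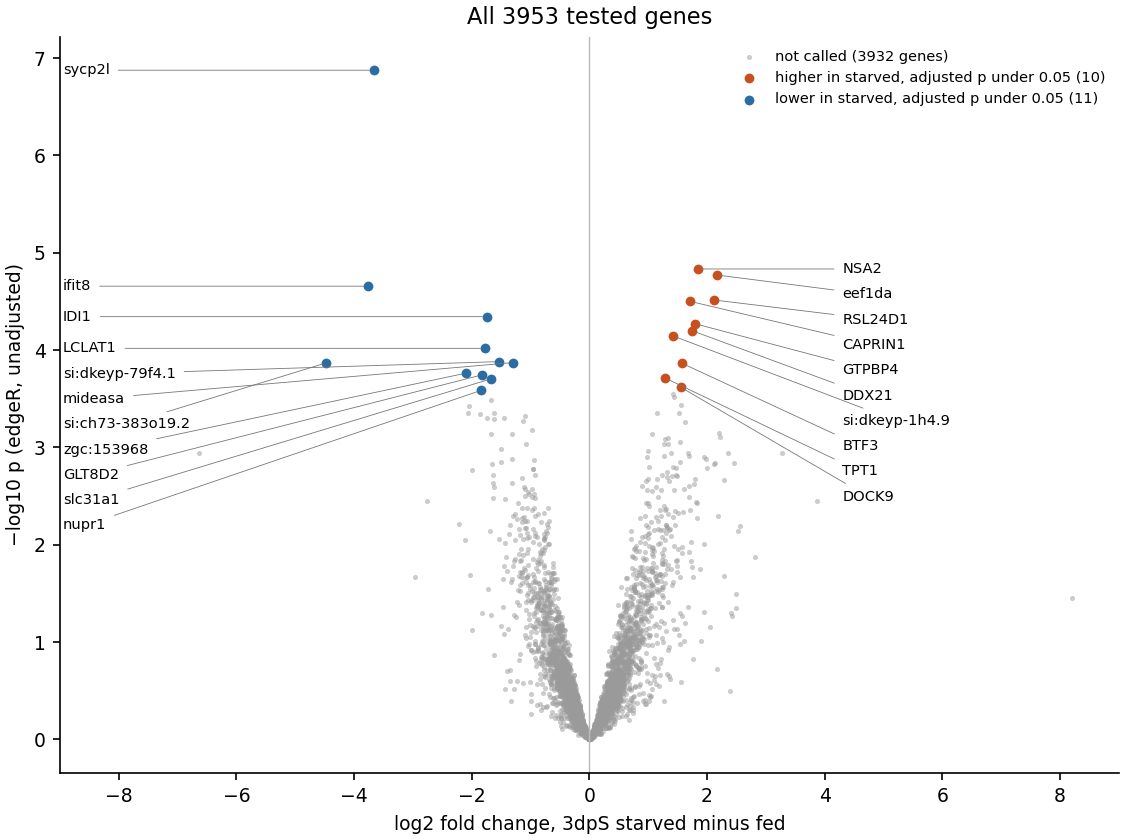
Log2 fold change (horizontal axis, starved minus fed at 3dpS) against −log10 of the unadjusted edgeR p-value (vertical axis) for each of the 3953 tested genes. The 10 called genes that were higher in starved fish and the 11 that were lower are coloured and named, and the remaining 3932 genes are grey.

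Values of single fish are given below in a fixed order, Fed1Gut1, Fed2Gut2 and Fed2Gut3 for the fed fish and Sta1Gut1, Sta1Gut2, Sta2Gut2 and Sta2Gut3 for the starved fish, where the first digit is the tank. Most genes were named by rank in a test or list, or as neighbours of a called gene, but *FKBP5*, *PCK1*, *G6PC1*, *nr1d2a*, *nfil3-6*, *AARSD1*, *amy2a*, *NPC1L1*, *ifit15*, *trim25*, *stat2*, *helz2*, *serpina1l*, *vtg1*, *EIF3D*, *EIF3F*, *LTV1* and *ptges3l* were picked with their values known. *sycp2l* (ENSDARG00000079190), which encodes a relative of a synaptonemal complex protein known from mouse oocytes, lay at 189, 149 and 247 CPM in the fed fish and 24.4, 9.31, 14.5 and 14.4 CPM in the starved fish. Every fed fish thus lay several times above every starved fish, with a mean 12.7-fold lower in starved fish (log2 fold change -3.67 ± 0.35 SE, adjusted p = 0.000528). Its nearest neighbour in the RefSeq gene table is *elovl2*, 6245 bases away in GRCz12tu, which encodes an elongase of long polyunsaturated fatty acids. *elovl2* was found at 101, 64.8 and 139 CPM in the fed fish and 29.3, 40.3, 38.3 and 38.4 CPM in the starved fish. The fed and starved fish did not overlap for *elovl2* either, but its adjusted p missed the threshold (log2 fold change -1.46 ± 0.32 SE, adjusted p = 0.058). The oocyte and gonad markers other than *sycp2l* that could be tested were *zp3b* (-0.41 ± 0.46, log2 fold change ± SE) and *amh* (-1.33 ± 0.52), and neither was called. In the 8 fed fish of the 2 later time points, *sycp2l* ranged from 46.3 to 198 CPM, also above the starved fish at 3dpS.

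**Figure D2:**
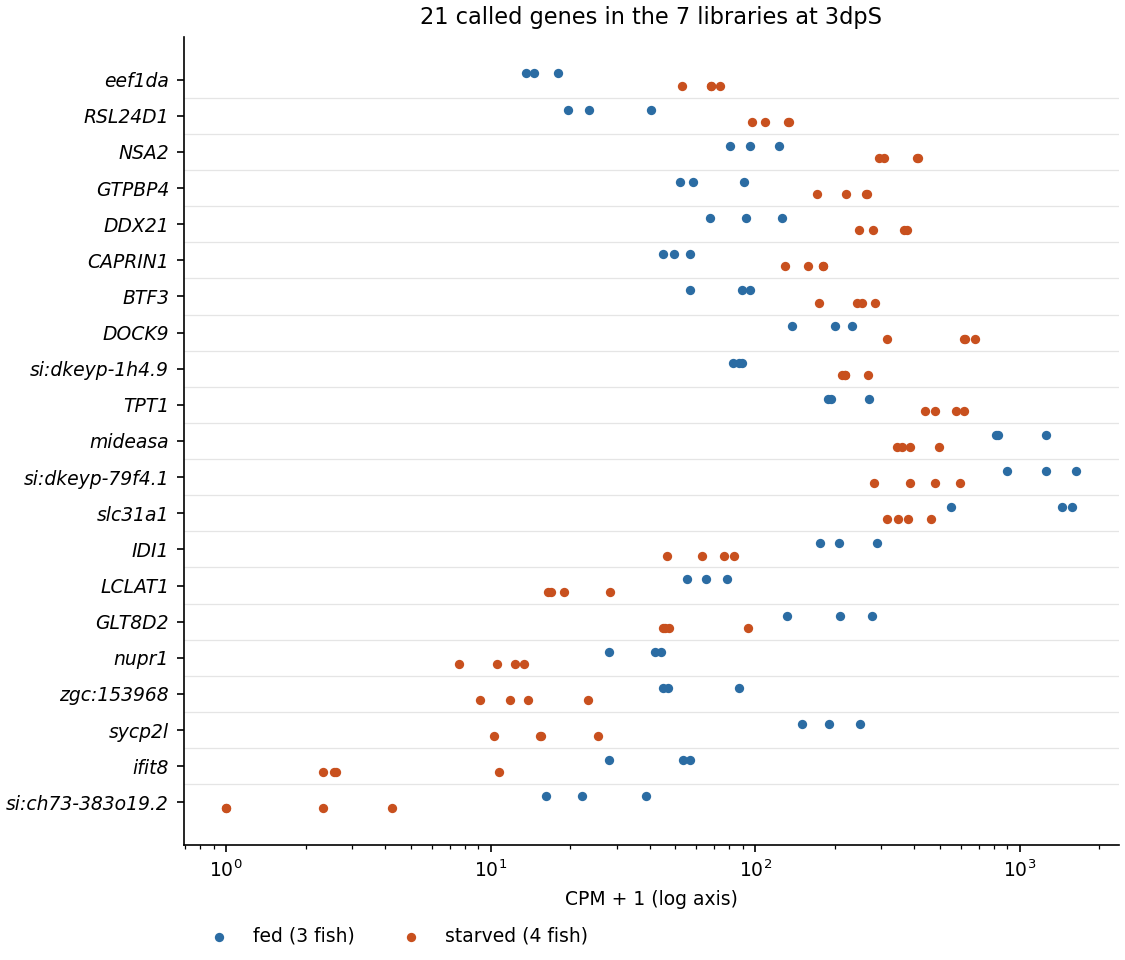
CPM + 1 (horizontal axis, log scale) of the 21 called genes in each of the 7 libraries at 3dpS, sorted by log2 fold change from the largest rise (top) to the largest fall (bottom). Each blue point is 1 of the 3 fed fish and each orange point 1 of the 4 starved fish, and the 2 groups do not overlap for any of the 21 genes.

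Copper uptake by enterocytes depends on the importer CTR1, encoded by *slc31a1*. This gene was measured at 552, 1444 and 1574 CPM in the fed fish and 346, 462, 376 and 314 CPM in the starved fish. Starved fish were uniformly low, and Fed1Gut1 was the lowest fed fish but still above them (log2 fold change -1.67 ± 0.32 SE, adjusted p = 0.0411). Among the 8 tested genes of copper, zinc and iron handling, *slc31a1* alone was called (0.278% of all tested genes were called lower), and 3 had an unadjusted p under 0.05 and a lower value in starved fish (7.06% of all genes). The other such genes were *fth1a*, a heavy chain of the iron store ferritin, at 189, 107 and 84.7 CPM in the fed fish and 43.9, 18.6, 77.9 and 70.4 CPM in the starved fish, and *hephl1a*, a ferroxidase relative, at 21.6, 13.6 and 30.5 CPM in the fed fish and 8.13, 10.9, 14.5 and 8 CPM in the starved fish. The adjusted p was 0.211 for *fth1a* and 0.295 for *hephl1a*. The zinc transporter *SLC30A4* differed by a log2 fold change of 0.51 ± 0.30 SE. The list's median was -0.12 beside 0.01 for all genes.

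Lipid genes gave 2 calls, one in phospholipid remodelling and one in isoprenoid synthesis. *LCLAT1*, an acyltransferase that remodels cardiolipin and phosphatidylinositol, lay at 77.3, 54.3 and 64.4 CPM in the fed fish and 17.9, 15.5, 15.8 and 27.2 CPM in the starved fish. All fed fish lay above all starved fish (log2 fold change -1.78 ± 0.32 SE, adjusted p = 0.0345). None of the other 18 tested genes of phospholipid remodelling was called, and the list's median was 0.09. The choline kinase *chka*, which starts phosphatidylcholine synthesis, was found at 5.39, 10.6 and 1.69 CPM in the fed fish and 19.5, 12.4, 27.7 and 20.8 CPM in the starved fish (log2 fold change 1.69 ± 0.58 SE, adjusted p = 0.189). *PLPP1*, a lipid phosphate phosphatase, was higher in all starved fish than in all fed fish (log2 fold change 0.76 ± 0.26 SE, adjusted p = 0.183), and *CHKB* differed by 1.05 ± 0.44. In isoprenoid synthesis, *IDI1*, the isomerase that makes dimethylallyl diphosphate, was measured at 174, 206 and 288 CPM in the fed fish and 45.5, 62, 81.9 and 75.2 CPM in the starved fish (log2 fold change -1.75 ± 0.29 SE, adjusted p = 0.0257). The 8 tested genes of sterol synthesis were all lower in starved fish, with a median of -1.36. Of these, 5 had an unadjusted p under 0.05, as did 7.06% of all genes with a lower value. One, *IDI1*, was called (0.278% of all tested genes were called lower), and DESeq2 called 3 (1.44% of its genes were called lower).

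Fat uptake and chylomicron assembly gave no call among 32 tested genes (median -0.12), with 13 higher and 19 lower in starved fish. DESeq2, which called 3.05% of its genes, called *fabp1b.1* lower (adjusted p = 0.0338) and *PLIN2* higher (adjusted p = 0.043). The largest counts in this list belonged to *apobb.1*, the structural protein of lipoproteins, at 1407, 1426 and 2077 CPM in the fed fish and 924, 914, 1037 and 1132 CPM in the starved fish. Every fed fish lay above every starved fish, at a modest difference (log2 fold change -0.71 ± 0.22 SE, adjusted p = 0.153). *fabp1b.1*, a fatty acid-binding protein of enterocytes, lay at 216, 118 and 156 CPM in the fed fish and 69.9, 52.7, 85.8 and 88 CPM in the starved fish (log2 fold change -1.14 ± 0.30 SE, adjusted p = 0.0948). The sterol exporter subunit *ABCG8* (-1.15 ± 0.43) and the cholesterol importer *NPC1L1* (-0.78 ± 0.35) were also lower in all starved than in all fed fish, with adjusted p of 0.235 and 0.315. *PLIN2*, which coats lipid droplets, had its higher values in starved fish, at 3.59, 7.54 and 1.69 CPM in the fed fish and 21.1, 4.65, 54.1 and 51.2 CPM in the starved fish. Its groups overlapped, since Sta1Gut2 lay within the fed range, and the adjusted p was 0.203. Of the 5 tested genes of fatty acid and PUFA synthesis, *elovl2* had the smallest p and was called by DESeq2 but not by edgeR (adjusted p = 0.0102), followed by *ACSS2*, an acetyl-CoA synthetase, at 0.78 ± 0.32 (adjusted p = 0.274), and *fads2*, a desaturase, at -0.50 ± 0.26. *BCO1*, which cleaves dietary carotenoids into retinal, was found at 142, 158 and 215 CPM in the fed fish and 115, 77.6, 64.7 and 36.8 CPM in the starved fish (log2 fold change -1.22 ± 0.35 SE, adjusted p = 0.121 in edgeR, adjusted p = 0.0494 in DESeq2).

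Of 20 tested genes of fatty acid oxidation, 10 were higher and 10 lower in starved fish (median -0.03), and none was called. *acsl1b*, an acyl-CoA synthetase, was measured at 266, 142 and 232 CPM in the fed fish and 133, 112, 121 and 128 CPM in the starved fish (log2 fold change -0.79 ± 0.27 SE, adjusted p = 0.189), and the ketone-using enzyme *oxct1b* differed by -1.32 ± 0.51 (adjusted p = 0.243). Both were lower in every starved fish than in every fed fish. Among 22 tested genes of glucose production and glycolysis, 11 were higher and 11 lower, and none was called. *pck2*, the mitochondrial enzyme that makes phosphoenolpyruvate, lay at 347, 413 and 452 CPM in the fed fish and 182, 220.3, 283 and 274 CPM in the starved fish (log2 fold change -0.75 ± 0.24 SE, adjusted p = 0.163). One of the glucose-6-phosphatase genes, *g6pc1a.1*, was found at 7.19, 4.52 and 5.08 CPM in the fed fish and 35.8, 17.1, 6.6 and 17.6 CPM in the starved fish (adjusted p = 0.227).

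Genes of the fasting hormones depended on which fed fish was taken as the reference. *FKBP5*, a chaperone of the glucocorticoid receptor that glucocorticoids induce, was measured at 510.2, 70.8 and 37.3 CPM in the fed fish and 249, 326, 378 and 427 CPM in the starved fish. Fed1Gut1 was thus above every starved fish, while the fed fish of tank 2 were the lowest of the 7, and *FKBP5* was not called (adjusted p = 0.765). *HSD11B2*, which inactivates cortisol, lay at 80.8, 22.6 and 25.4 CPM in the fed fish and 143, 150.5, 85.8 and 102 CPM in the starved fish. Fed1Gut1 was again well above the other fed fish, although below all starved fish (log2 fold change 1.50 ± 0.44 SE, adjusted p = 0.136). The cytosolic gluconeogenic enzyme *PCK1* was found at 472, 118 and 107 CPM in the fed fish and 338, 249.7, 267 and 479 CPM in the starved fish, and *G6PC1*, a glucose-6-phosphatase, at 199, 33.2 and 30.5 CPM in the fed fish and 130.1, 278, 112 and 246 CPM in the starved fish. In both genes Fed1Gut1 fell within the starved range. *PDK2* (ENSDARG00000059054), an inhibitor of pyruvate oxidation, was measured at 146, 37.7 and 40.7 CPM in the fed fish and 130.1, 205, 124 and 89.6 CPM in the starved fish, also with Fed1Gut1 inside the starved range. *PFKFB3*, which drives glycolysis, lay at 8.98, 52.8 and 54.2 CPM in the fed fish and 19.5, 17.1, 21.1 and 19.2 CPM in the starved fish. Here Fed1Gut1 was the lowest of the 7 fish, and the fed fish of tank 2 were the highest. The insulin-responsive *IGFBP1* was found at 12.6, 6.03 and 3.39 CPM in the fed fish and 34.1, 9.31, 104 and 20.8 CPM in the starved fish (log2 fold change 2.5 ± 0.96 SE, adjusted p = 0.28). Its highest values were those of Sta2Gut2 and Sta1Gut1, as for the hepatocyte gene *serpina1l* described below. The part of liver RNA in the *IGFBP1* values was not tested. Over the list of insulin and glucocorticoid response genes, 7 of 11 tested members were higher (median 0.38) and edgeR called none. DESeq2 called *HSD11B2* higher (adjusted p = 0.0426), as it did 1.61% of its genes.

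In some clock genes, too, Fed1Gut1 differed from the fed fish of tank 2, which lay apart from the other fish. *nr1d2a*, a repressor within the clock, was measured at 48.5, 1.51 and 1.69 CPM in the fed fish and 29.3, 49.6, 17.2 and 36.8 CPM in the starved fish, and *nfil3-6*, a repressor of the PAR bZIP branch, at 41.3, 1.51 and 0 CPM in the fed fish and 21.1, 46.5, 9.24 and 27.2 CPM in the starved fish. The fed fish of tank 2 were at or under the detection limit of 3 reads in both genes, and Fed1Gut1 was within or near the starved range. The light-responsive photolyase *cry5* separated the groups, at 3764, 4362 and 4527 CPM in the fed fish and 2207, 3205, 1461 and 1901 CPM in the starved fish (log2 fold change -0.94 ± 0.26 SE, adjusted p = 0.109). *CRY2* (0.91 ± 0.39) and *dbpa* (1.18 ± 0.51), a PAR bZIP factor, were higher in all starved fish, with adjusted p of 0.302 and 0.305. Of the 17 tested clock genes (median 0.48) edgeR called none. DESeq2 called *cry5* lower (adjusted p = 0.0492), as it did 1.44% of its genes. Collection hour by library is not given in the sources used here.

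The omission of Fed1Gut1 raised the number of called genes from 21 to 116 (2.66% of the genes then tested), of which 18 were among the 21. This omission and the genes described for it were chosen after the values were seen. Of the 98 genes added, 41 had a Fed1Gut1 value within or past the starved range, and in 77 it was nearer to the starved than to the other fed fish on the log scale, which their selection favours, against 1 of the 18. Called on this footing were *FKBP5* (log2 fold change 2.66, adjusted p = 0.00942), *HSD11B2* (log2 fold change 2.32, adjusted p = 0.0119), *nr1d2a* (log2 fold change 4.26, adjusted p = 0.0135), *nfil3-6* (log2 fold change 4.81, adjusted p = 0.0359), *G6PC1* (log2 fold change 2.58, adjusted p = 0.0163), *PCK1* (log2 fold change 1.56, adjusted p = 0.0311) and *PDK2* (log2 fold change 1.81, adjusted p = 0.0327). *PFKFB3* was called lower (log2 fold change -1.48, adjusted p = 0.0327), as was the interferon gene *pkz* (log2 fold change -1.68, adjusted p = 0.0441). The largest change by p was *AARSD1*, an alanyl-tRNA editing gene, at 2565, 166 and 142 CPM in the fed fish and 1244, 2033, 1170.1 and 1969 CPM in the starved fish. The 8 fed fish of the later time points were compared on a scale normalized over all 23 libraries. In 54 of the 98 genes all 8 lay beyond both tank 2 fed fish, towards the starved fish, and in 44 at least 1 did not. Selection of the 98 genes through the tank 2 fed fish favours such a count, and its share over all tested genes was not computed. These 8 fish ranged from 115 to 458 CPM for *FKBP5*, from 41.3 to 262 CPM for *PDK2*, from 6.11 to 54.9 CPM for *nr1d2a* and from 347 to 2974 CPM for *AARSD1*, and these ranges overlap those of the starved fish at 3dpS. The pancreas markers *prss59.1* (log2 fold change 1.70, adjusted p = 0.0339) and *amy2a* (log2 fold change 2.27, adjusted p = 0.0339) were also called without Fed1Gut1, and exocrine pancreas markers as a list moved from a median of -0.37 to 1.63. Among the 3 most abundant of these markers, *cpa5* and *prss59.1* were highest in Fed1Gut1, but *PLA2G1B* was not. The study describes *cpa5* as considered a mast cell marker in zebrafish, so its place in this list is uncertain. In Fed1Gut1 *cpa5* gave 1679 of the 7846 plain CPM of the exocrine pancreas markers. *PLA2G1B* had 137, 271 and 922 plain CPM in the fed fish and 635, 120, 756 and 188 plain CPM in the starved fish. The only tested erythrocyte marker, *alas2*, was called higher too (log2 fold change 2.03). It lay at 33903, 2598 and 2152 CPM in the fed fish and 13083, 4850, 7926 and 13140 CPM in the starved fish. Other erythrocyte markers were low and untested. In plain CPM, *epb41b* had 12.6, 4.4 and 6.71 in the fed fish and 3, 0, 1.51 and 0 in the starved fish. The marker *slc4a1a* had 1.4, 2.93 and 3.35 in the fed fish, lowest in Fed1Gut1, and 1.5, 3.24, 1.51 and 2.89 in the starved fish. The part of adhering pancreas or of blood in these differences was not tested, and Fed1Gut1 was the only fed fish of its tank at 3dpS.

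Interferon-stimulated genes were lower in starved fish for 20 of 27 tested members, with a median of -0.57. *ifit8* was called, DESeq2 called 4 genes, all lower (1.44% of its genes), and 9 had an unadjusted p under 0.05 and a lower value (7.06% of all genes). *ifit8*, an interferon-induced tetratricopeptide gene of the family that binds viral RNA, lay at 26.9, 55.8 and 52.5 CPM in the fed fish and 9.76, 1.55, 1.32 and 1.6 CPM in the starved fish. Sta1Gut1 was the highest starved fish, yet all starved fish lay below all fed fish (log2 fold change -3.76 ± 0.58 SE, adjusted p = 0.0208). Only 3 reads or fewer were counted on *ifit8* in 3 of the 4 starved libraries, at or under the detection limit. *pkz*, a kinase that senses viral Z-form nucleic acid in fish, was measured at 44.9, 90.4 and 47.4 CPM in the fed fish and 17.9, 31, 14.5 and 20.8 CPM in the starved fish (log2 fold change -1.50 ± 0.37 SE, adjusted p = 0.0851). Every starved fish lay below every fed fish. *ifit14* (23.4, 76.9 and 44 CPM in the fed fish and 26, 9.31, 5.28 and 1.6 CPM in the starved fish) and *ifit15* (23.4, 133 and 154 CPM in the fed fish and 37.4, 9.31, 7.92 and 0 CPM in the starved fish) had log2 fold changes of -2.22 ± 0.65 and -2.97 ± 0.99, with overlapping groups. The fed fish of tank 2 were the highest of the 7 libraries in *ifit14* and *ifit15*, and Fed1Gut1 lay within the starved range in both. *trim25* (-1.07 ± 0.46), *stat2* (-0.99 ± 0.43) and *helz2* (-1.2 ± 0.52) were lower by similar amounts with adjusted p from 0.303 to 0.309. IFIT genes are similar in sequence, and how the counting treated reads that map to several copies is not stated. Summed leukocyte markers ranged from 1428 to 2448 CPM in fed and 1591 to 2643 CPM in starved fish, and in bulk tissue fewer cells of a type and less RNA per cell cannot be told apart.

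Complement and acute-phase genes were higher in 14 of 15 tested cases (median 0.38), but none reached an unadjusted p under 0.05. The terminal complement component *c9*, made mainly by liver, lay at 23.4, 19.6 and 79.6 CPM in the fed fish and 185, 26.4, 137 and 32 CPM in the starved fish. Sta1Gut1 and Sta2Gut2 carried the high values. The same 2 fish were highest for the hepatocyte gene *serpina1l*, a protease inhibitor, at 19.8, 6.03 and 10.2 CPM in the fed fish and 91.1, 9.31, 136 and 24 CPM in the starved fish. All 12 tested hepatocyte markers were higher on average in starved fish (median 0.97), and their sums ranged from 361 to 1301 CPM in fed and 401 to 2680 CPM in starved fish. *vtg1*, an egg yolk precursor made by the liver of females, was found at 0, 0 and 0 CPM in the fed fish and 1.63, 63.6, 19.8 and 117 CPM in the starved fish (adjusted p = 0.288 in edgeR and 0.0196 in DESeq2), so it was undetected in all fed fish and in 1 starved fish was under the detection limit. The part of liver RNA in the complement values was not tested.

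The other 6 called genes that fell belonged to no list. *GLT8D2*, named for its glycosyltransferase domain, was measured at 208, 276 and 130.4 CPM in the fed fish and 43.9, 93.1, 46.2 and 44.8 CPM in the starved fish, with Sta1Gut2 the highest starved fish (log2 fold change -1.82 ± 0.35 SE, adjusted p = 0.0411). In the RefSeq table this gene overlaps *HSP90B1*, an ER chaperone, which was not called (0.26 ± 0.39, adjusted p = 0.824). *mideasa*, a component of histone deacetylase complexes, lay at 1258, 827 and 817 CPM in the fed fish and 343, 385, 358 and 495 CPM in the starved fish (log2 fold change -1.29 ± 0.24 SE, adjusted p = 0.0362). It overlaps *SLC35F6* (-0.18 ± 0.35) and lies 4 bases from *zgc:153896* (-0.48 ± 0.28), and neither neighbour was called. *nupr1*, a small nuclear protein induced by stress in mammals, was found at 43.1, 27.1 and 40.7 CPM in the fed fish and 11.4, 12.4, 6.6 and 9.6 CPM in the starved fish (log2 fold change -1.84 ± 0.37 SE, adjusted p = 0.049). The uncharacterized genes *si:dkeyp-79f4.1* (898, 1257 and 1637 CPM in the fed fish and 478, 593, 384 and 282 CPM in the starved fish) and *zgc:153968* (86.2, 43.7 and 45.7 CPM in the fed fish and 8.13, 10.9, 22.5 and 12.8 CPM in the starved fish) were called as well, with log2 fold changes of -1.54 ± 0.29 and -2.09 ± 0.40. *si:ch73-383o19.2* had 37.7, 21.1 and 15.2 CPM in the fed fish and 3.25, 0, 1.32 and 0 CPM in the starved fish. Since 2 starved libraries had no read of it and the other 2 were at or under the detection limit, its fitted log2 fold change of -4.47 ± 0.83 depends on the prior count and is no bound.

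The genes that rose belonged mostly to ribosome assembly and translation. *NSA2*, which acts in assembly of the large ribosomal subunit, was measured at 122, 95 and 79.6 CPM in the fed fish and 408, 293, 305 and 411 CPM in the starved fish (log2 fold change 1.84 ± 0.27 SE, adjusted p = 0.0208). *RSL24D1*, a placeholder for a ribosomal protein on the same particle, lay at 39.5, 22.6 and 18.6 CPM in the fed fish and 132, 96.2, 108 and 133 CPM in the starved fish (log2 fold change 2.12 ± 0.34 SE, adjusted p = 0.0208). All starved fish lay above all fed fish in both. The GTPase *GTPBP4* (1.79 ± 0.30, adjusted p = 0.0265) and the nucleolar helicase *DDX21* (1.74 ± 0.30, adjusted p = 0.0277) completed the 4 called assembly factors (0.253% of all tested genes were called higher), out of 44 tested, of which 40 were higher and DESeq2 called 8 (1.61% of its genes), among them *ptges3l*, a relative of an HSP90 co-chaperone. Among 45 tested members of the translation factor list, which also holds genes such as *BTF3* and *TPT1*, 40 were higher (median 0.67). Of these 3 were called, and DESeq2 called 5. The elongation factor subunit *eef1da* was found at 12.6, 13.6 and 16.9 CPM in the fed fish and 52, 72.9, 67.4 and 67.2 CPM in the starved fish (log2 fold change 2.17 ± 0.32 SE, adjusted p = 0.0208). *BTF3*, which shields nascent chains on the ribosome, was measured at 88, 55.8 and 94.9 CPM in the fed fish and 252, 242, 173 and 283 CPM in the starved fish (log2 fold change 1.58 ± 0.29 SE, adjusted p = 0.0362), and *TPT1*, a growth-linked protein whose messenger is under translational control, at 269, 187 and 193 CPM in the fed fish and 437, 476, 574 and 615 CPM in the starved fish (log2 fold change 1.28 ± 0.25 SE, adjusted p = 0.0411). Of 64 tested cytosolic ribosomal proteins 62 were higher (median 1.07). Of these edgeR called none and DESeq2 called 9 (1.61% of its genes were called higher), and 45 had an unadjusted p under 0.05 and a higher value (7.89% of all genes).

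Not all translation genes had higher values in starved fish. *EIF3D*, a subunit of initiation factor 3, lay at 4773, 6749 and 6890.1 CPM in the fed fish and 3117, 5083, 2823 and 3355 CPM in the starved fish, with 3 starved fish below all fed fish (log2 fold change -0.77 ± 0.25 SE, adjusted p = 0.165). Its level in CPM was far above that of the other subunits of the same complex, for instance *EIF3F* at 12.6, 12.1 and 10.2 CPM in the fed fish and 32.5, 26.4, 37 and 30.4 CPM in the starved fish, which was higher in all starved fish (1.42 ± 0.36). *LTV1*, an export factor of the small subunit, was found at 356, 785 and 761 CPM in the fed fish and 338, 423, 383 and 347 CPM in the starved fish (log2 fold change -0.76 ± 0.28 SE, adjusted p = 0.223), with Fed1Gut1 inside the starved range. These levels are not corrected for gene length, and a share of opposite-strand reads in them was not tested.

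*CAPRIN1*, which binds messenger RNA in stress granules, was measured at 55.7, 48.2 and 44 CPM in the fed fish and 158, 129, 179.6 and 179 CPM in the starved fish (log2 fold change 1.70 ± 0.27 SE, adjusted p = 0.0208). *DOCK9*, which activates the cytoskeletal GTPase Cdc42, lay at 232, 199 and 137 CPM in the fed fish and 613, 619, 316 and 677 CPM in the starved fish (log2 fold change 1.55 ± 0.31 SE, adjusted p = 0.0477). *si:dkeyp-1h4.9* was found at 88, 85.9 and 81.3 CPM in the fed fish and 267, 217, 211 and 218 CPM in the starved fish (log2 fold change 1.42 ± 0.25 SE, adjusted p = 0.0283), with a tight range in both groups apart from Sta1Gut1. Chaperones of the cytosol and mitochondria were higher in 13 of 15 tested cases (median 0.39). They gave no call in edgeR and 1 in DESeq2, which called 1.61% of its genes higher. Their leading member *HSP90AB1*, the constitutive HSP90, was measured at 3837, 2345 and 2759.8 CPM in the fed fish and 5797, 4751, 6657 and 6541 CPM in the starved fish. Every starved fish exceeded every fed fish (log2 fold change 0.99 ± 0.24 SE, adjusted p = 0.0815 in edgeR, adjusted p = 0.0102 in DESeq2). Of 26 tested chaperones of the ER, 10 were higher, with a median of -0.03 and no call.

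**Figure D3:**
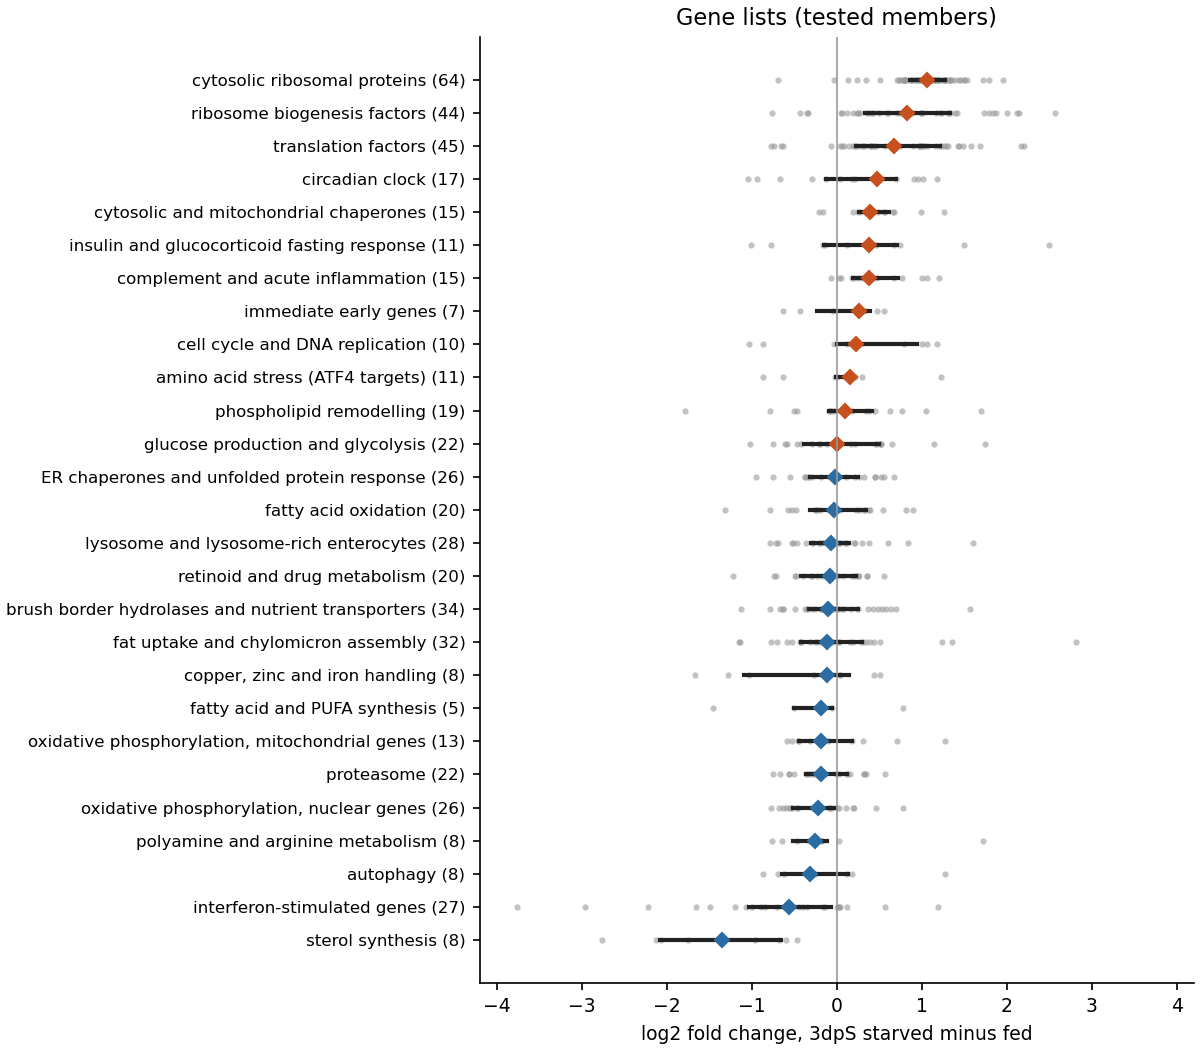
Log2 fold change (horizontal axis, starved minus fed at 3dpS) of the tested members of 27 gene lists, with the number of members in parentheses. Each grey point is 1 gene, the bar spans the quartiles and the diamond is the median, which ranged from -1.36 for sterol synthesis to 1.07 for cytosolic ribosomal proteins.

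In the absorptive and digestive machinery of the enterocyte, none of 34 tested brush border hydrolases and nutrient transporters was called (median -0.11, 15 higher and 19 lower). The peptide transporter PEPT1, encoded by *SLC15A1* (ENSDARG00000044528), lay at 866, 830.4 and 861 CPM in the fed fish and 1182, 1143, 1055 and 1556 CPM in the starved fish. Each starved fish was above each fed fish by a small margin (log2 fold change 0.53 ± 0.21 SE, adjusted p = 0.262). The neutral amino acid transporter *SLC6A19* (ENSDARG00000018621) was found at 162, 129.6 and 114 CPM in the fed fish and 252, 149, 185 and 293 CPM in the starved fish with overlapping groups (log2 fold change 0.70 ± 0.29 SE, adjusted p = 0.282). Other tested identifiers of these names differed less, *SLC6A19* by 0.43 ± 0.39 (ENSDARG00000091560) and -0.10 ± 0.27 (ENSDARG00000056719), and *SLC15A1* by -0.18 ± 0.34 (ENSDARG00000100315). *enpp7.2*, an alkaline sphingomyelinase, was lower in all starved fish (log2 fold change -1.13 ± 0.37 SE, adjusted p = 0.165). *tmprss15*, which encodes enteropeptidase, the activator of trypsinogen, was measured at 1.8, 25.6 and 28.8 CPM in the fed fish and 42.3, 104, 23.8 and 52.8 CPM in the starved fish. Fed1Gut1 was again apart, here below all other fish, and the gene was not called (adjusted p = 0.347).

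Among 28 tested lysosomal genes (median -0.06) edgeR called none. DESeq2 called *ctss2.2* higher (adjusted p = 0.0347), as it did 1.61% of its genes. The 2 lysosomal genes with the smallest p were proteases with opposite signs. *ctss2.2*, a cathepsin S gene, lay at 34.1, 33.2 and 33.9 CPM in the fed fish and 202, 65.1, 83.2 and 65.6 CPM in the starved fish (log2 fold change 1.61 ± 0.43 SE, adjusted p = 0.103). *CTSB*, which encodes cathepsin B, was found at 2680.4, 2349.6 and 1886 CPM in the fed fish and 1386, 1346, 1319 and 1653 CPM in the starved fish (log2 fold change -0.69 ± 0.21 SE, adjusted p = 0.143). Both separated the groups, and *MAN2B1*, a lysosomal mannosidase, was higher in all starved fish (0.84 ± 0.32). None of 8 autophagy genes (median -0.31), 22 proteasome genes (median -0.19) or 11 amino acid stress genes (median 0.16) was called or had an unadjusted p under 0.05. In arginine metabolism *ARG2*, a mitochondrial arginase, was measured at 12.6, 10.6 and 1.69 CPM in the fed fish and 21.1, 34.1, 25.1 and 28.8 CPM in the starved fish (log2 fold change 1.72 ± 0.50 SE, adjusted p = 0.131). *sat1a.1*, which acetylates spermidine and spermine, was lower in all starved fish (log2 fold change -0.76 ± 0.25 SE, adjusted p = 0.165).

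Respiratory genes of the nucleus were lower in 20 of 26 tested cases (median -0.23) with 1 unadjusted p under 0.05, that of *UQCRFS1* (-0.77 ± 0.34). Genes of the mitochondrial genome differed in both directions. *MT-ND2* lay at 374, 335 and 329 CPM in the fed fish and 1219.7, 836, 436 and 853 CPM in the starved fish (log2 fold change 1.27 ± 0.31 SE, adjusted p = 0.0829 in edgeR, adjusted p = 0.0164 in DESeq2), and *MT-ND1* was higher too (log2 fold change 0.71 ± 0.22 SE, adjusted p = 0.155). *MT-ND3* was lower in all starved fish (log2 fold change -0.58 ± 0.26 SE, adjusted p = 0.314). All are subunits of complex I that are read from 1 polycistronic transcript. In the cell cycle list, *HMGB2*, a chromatin protein of dividing cells, was found at 25.2, 21.1 and 20.3 CPM in the fed fish and 40.7, 48.1, 51.5 and 36.8 CPM in the starved fish (log2 fold change 1.00 ± 0.31 SE, adjusted p = 0.153), *hmgb2b* was at 1.18 ± 0.44 and *RPA2*, which binds single-stranded DNA, at -1.04 ± 0.41, and none of the 10 tested genes was called.

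Of the genes called by DESeq2, the one with the smallest p outside the 21 was *c2cd3*, a centriole gene, at 179.7, 84.4 and 1223 CPM in the fed fish and 3.25, 9.31, 2.64 and 1.6 CPM in the starved fish. The fed fish differed widely among themselves, and in the starved fish 3 libraries were under the detection limit and Sta1Gut2 above it, with 12 reads (log2 fold change -6.64 ± 1.2 SE, adjusted p = 0.0815 in edgeR). Next came *si:dkey-11f4.14* (2.29 ± 0.55), *EEF1G* (1.44 ± 0.29), the phosphoinositide-binding *ZFYVE26* (-1.85 ± 0.39), *si:dkey-183n20.15* (1.56 ± 0.33), *RPL36AL* (1.53 ± 0.33), *nop53* (1.42 ± 0.29), *RPS2* (1.15 ± 0.24), the glutamate transporter *SLC1A7* (-1.68 ± 0.35) and 1 unnamed identifier. Their edgeR adjusted p lay between 0.0504 for *nop53* and 0.0958 for *si:dkey-11f4.14*.

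The called genes were then set beside the 8 fed fish of 21dpS and 3dpR. In 10 of the 21 genes the starved fish at 3dpS lay beyond all 8 in the same direction as against their own controls, and in 11 they overlapped. The 10 were *sycp2l* and all genes that rose except *DOCK9*. The 21 genes had been selected through the same starved fish, and the share of such genes among all tested was not computed. For *NSA2* the 8 fed fish ranged from 97.5 to 218 CPM and for *eef1da* from 21.4 to 51.1 CPM. For *IDI1* they ranged from 51 to 260.4 CPM, and for *slc31a1* from 397 to 1301 CPM, in both cases reaching into the starved range. The median of the sterol synthesis list was -1.36 against the 3dpS fed fish and 0.06 against the 8 other fed fish, so starved fish had lower sterol genes than their own fed controls but not than the later fed fish. The same comparison gave -0.57 in both cases for interferon-stimulated genes and 0.45 in place of 1.07 for ribosomal proteins. Time point and diet are confounded in it, and it was run as an alternative only. At 21dpS, 19 of the 21 genes could be tested, 17 had the same sign and 3 were called (2.81% of all genes tested there). The 3 were *sycp2l* (log2 fold change -4.46 ± 0.58 SE, adjusted p = 0.00253), *slc31a1* (log2 fold change -1.42 ± 0.27 SE, adjusted p = 0.0137) and *DOCK9* (log2 fold change 1.38 ± 0.33 SE, adjusted p = 0.0339). No gene was called for a difference between the 3dpS and 21dpS effects out of 4628 tested in edgeR, although 400 had an unadjusted p under 0.05.

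**Figure D4:**
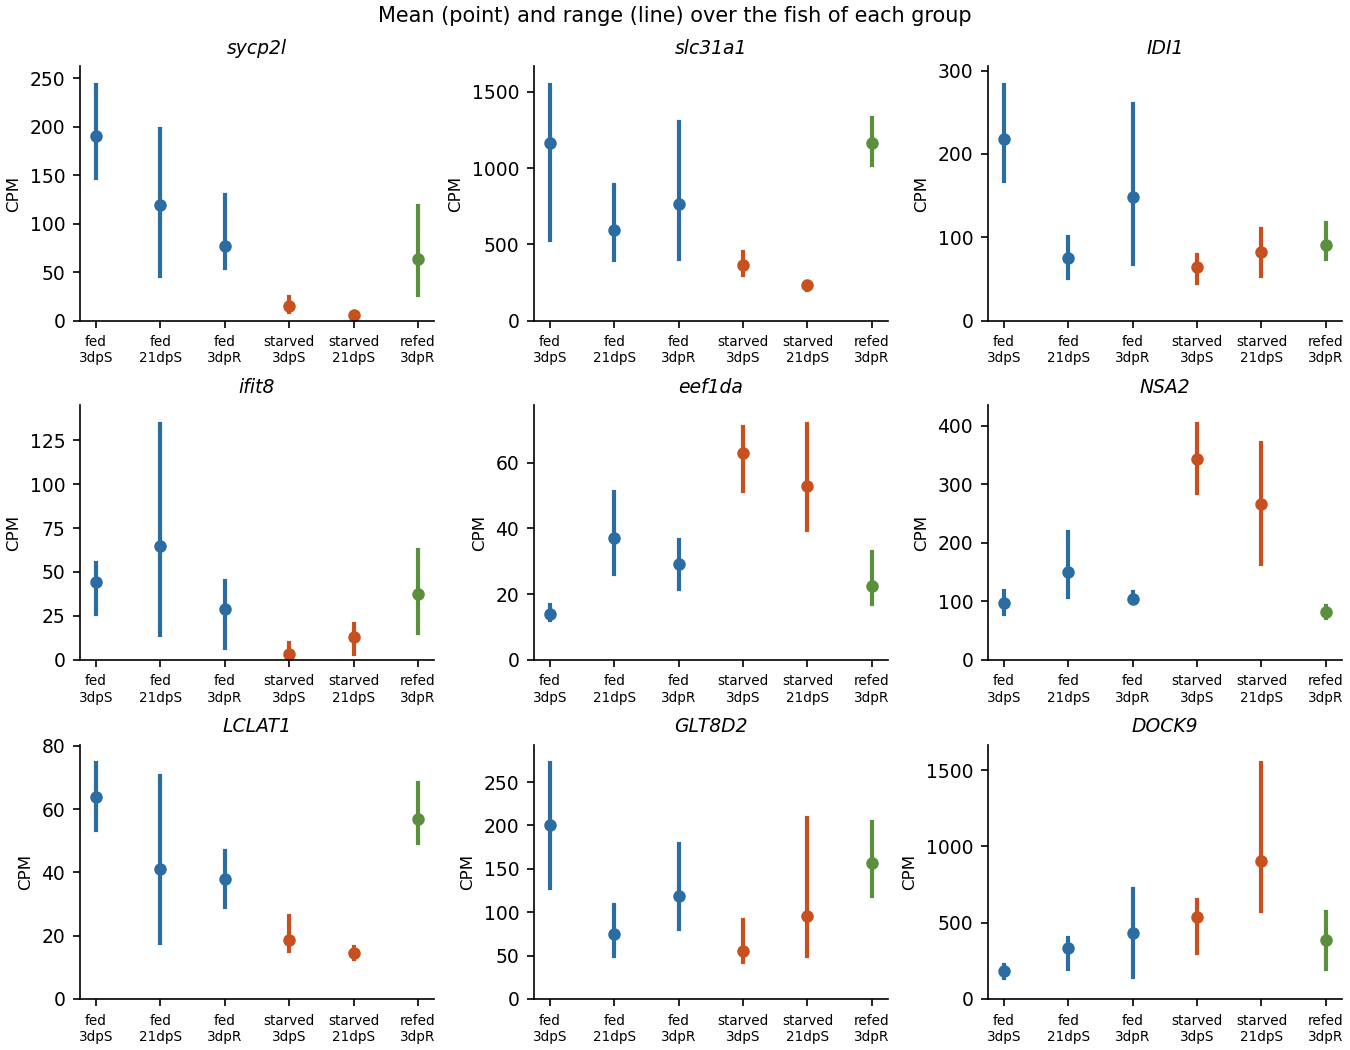
Mean CPM (point) and range (line) over the fish of each of the 6 groups of the study for 9 of the called genes, on a scale normalized over all 23 libraries (linear vertical axes that start at 0). Fed groups are blue, starved groups orange and refed fish green, with 3 fish in the 3dpS fed group and 4 in the others.

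The number of called genes depended strongly on single fish. It was 116 without Fed1Gut1, 29 without Sta1Gut2 and 16 without Sta2Gut2, but 3 without Sta1Gut1, 2 without Fed2Gut3, and 1 without Fed2Gut2 or Sta2Gut3. *sycp2l* was the only gene called in all 7 of these fits, and *nupr1* was called in none of them. No called gene changed sign in any of them, which groups that do not overlap nearly ensure.

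**Figure D5:**
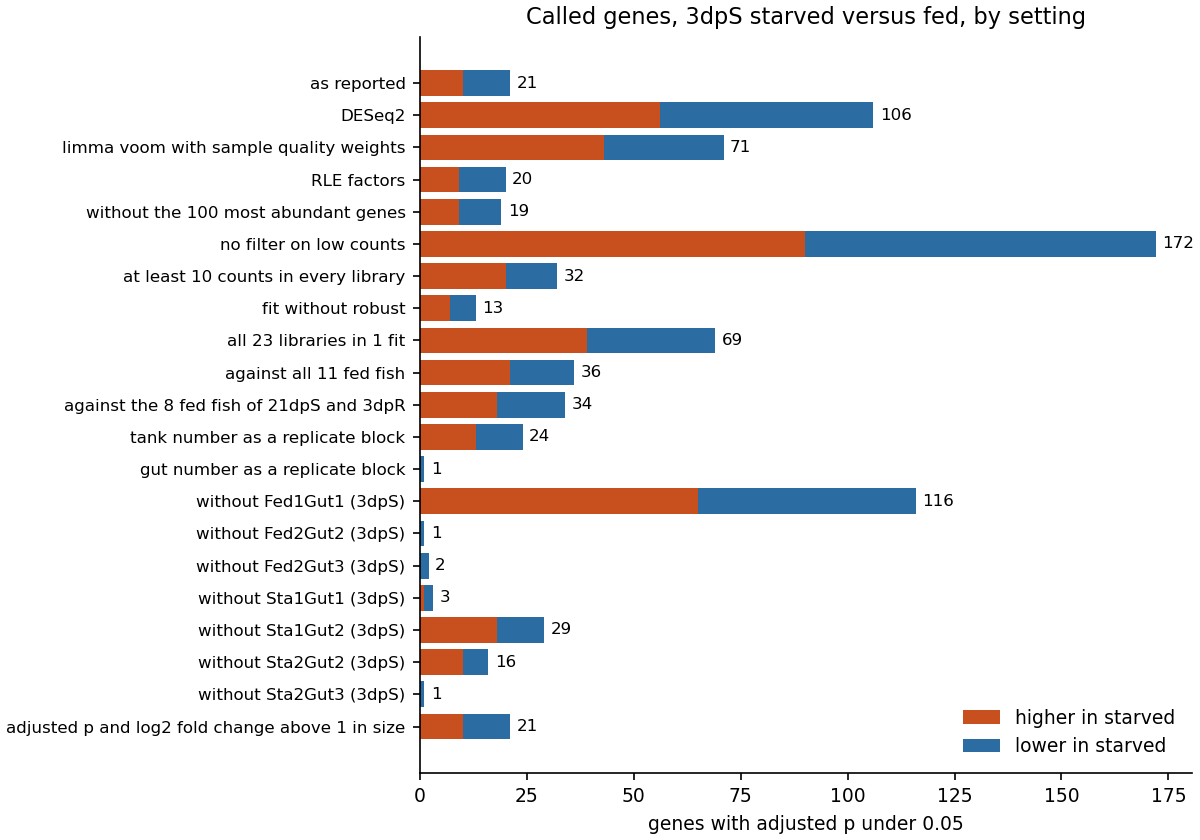
Number of genes with an adjusted p under 0.05 for starved against fed fish at 3dpS (horizontal axis) under each setting, split into higher (orange) and lower (blue) in starved fish. The count was 21 as reported and ranged from 1 to 116 when 1 library was left out.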

How the data were processed

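Total RNA of single zebrafish intestines was depleted of ribosomal RNA and sequenced as 50-base single-end reads (HiSeq 2500). The authors trimmed the reads with Trim Galore, aligned them to GRCz10 with STAR and deposited raw HTSeq counts per Ensembl gene, without normalization. The strand option and annotation release are not stated. The tables hold no row without a gene identifier. Symbols were found for 27063 identifiers, 1389 of them through the gene table of the study.

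The main tool was edgeR 4.0.16 (R 4.3.3). Genes were kept by filterByExpr, libraries scaled by TMM, and the 7 libraries of 3dpS fitted with a robust quasi-likelihood model without a block. Two-sided p-values received a Benjamini-Hochberg adjustment over all 3953 tested genes. The standard error was derived from the F statistic. The same fit served 21dpS, and a model of all 23 libraries tested the difference between both effects. Fits with limma 3.58.1 (voom with sample quality weights) and DESeq2 1.42.0, other filters and scalings, tank and fish number as blocks, other fed fish as controls and the omission of each library were alternatives, and recovery of known changes was tested on simulated data.

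Named genes were all called genes, up to 4 members with the smallest p of each pathway list, the 3 most abundant markers per cell type where used, the 10 smallest p-values of DESeq2 outside the edgeR calls, and overlapping or adjacent genes of called genes. A gene that these rules name is not reported here. Further genes are listed in the text as picked with their values known. The comparison, lists and rules were chosen with earlier results of these data known. Of the list terms, 117 matched no identifier. RefSeq (GRCz12tu) was used only for names and neighbours, because the counts use GRCz10 and the table has no strand. No sequences were used here.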

Additional observations from a re-analysis of the deposited data

Results flagged for a closer look

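Among the 4 starved libraries, a single fish lay far from the other 3 in 4 of the measures examined, namely 3 of the 21 called genes and the total of counted reads. In *ifit8*, Sta1Gut1 had 9.76 CPM, against 1.32 to 1.6 CPM in the other starved fish. In *GLT8D2*, Sta1Gut2 had 93.1 CPM, against 43.9 to 46.2 CPM. In *si:dkeyp-1h4.9*, Sta1Gut1 had 266.7 CPM, against 211 to 218 CPM in the other 3. Sta1Gut2 also had the largest total, 1236436 counted reads, against 664440 to 692839 in the other starved libraries. Its counts were even numbers in all 21 called genes, for instance 12 for *sycp2l*, 378 for *NSA2* and 94 for *eef1da*. They were also even in all 106 genes that DESeq2 called. Whether its reads were counted double was not tested, so the larger total may not be a greater depth. All fits took these counts as they are. About 1 in 20 groups would meet such a criterion by chance. The fed group holds 3 fish and was not examined in this way.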

How the results depend on the processing

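The 21 called genes of 3953 tested became 106 of 3470 with DESeq2 (20 shared) and 71 of 3953 with limma's voom and sample quality weights. With no filter on low counts 172 of 18968 were called, and with at least 10 counts in every library 32 of 2381. The fit without the robust option gave 13, and all 23 libraries in 1 fit gave 69 of 4628. Against all 11 fed fish the count was 36 (10 shared), and against the 8 fed fish of 21dpS and 3dpR it was 34 (9 shared). RLE factors gave 20, the omission of the 100 most abundant genes 19 and a log2 fold change above 1 in size 21. With 1 library left out the count ranged from 1 to 116. Genes whose groups did not overlap numbered 564 of 3953 tested, 1192 of 18968 with no filter and 352 of 2381 with at least 10 counts in every library. With 1 library left out they ranged from 654 of 3755 to 1298 of 4368. The difference between the 3dpS and 21dpS effects gave 0 calls of 4628 tested and 13 of 22017 with no filter. With 1 library left out it gave 0 to 7, the 7 without Fed1Gut1 of 3dpS. None of the 21 genes changed sign in any alternative, which is nearly ensured where the same 7 fish, or all but 1 of them, are compared. The causes of these shifts were not tested, beyond the fewer or more genes and fish that each alternative uses by construction.

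Fed and starved fish share tank and fish numbers. Deviations of libraries with the same tank number had a mean r of -0.00927 (6 pairs), and those with the same fish number 0.00175 (4 pairs). The 3 pairs with both numbers equal had a mean r of -0.0263. Deviations within a group cancel out, so the means of same-number and other-number pairs are nearly opposite by construction (other tank number, mean r = 0.00889). These values therefore cannot decide whether the numbers pair the fish. Fed and starved fish came from different tanks, so an equal tank number is not a shared tank. A replicate block for tank number gave 24 calls (20 shared), and one for fish number gave 1. The tank block gave 0 calls for the difference between effects. The filter on low counts left most identifiers untested. The detection limit of 3 reads, 2.43 to 5.03 CPM, played no part in that filter, and genes at a few CPM rest on few reads. The limit of 2.43 CPM is that of Sta1Gut2 and may be too low, as stated above.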
